A study of Homo sapiens with 18 samples.

Results

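The chromatin accessibility of 8 genes that mark cell cycle arrest and cellular senescence was described: the cyclin-dependent kinase inhibitors CDKN1A, CDKN1B, CDKN1C, CDKN2A and CDKN2B, the p53 regulator MDM2, the stress-induced cytokine GDF15 and the nuclear lamina gene LMNB1. Every peak of the deposited peak count table (genome build hg38) that overlapped the annotated body of a member gene, or the 10 kb upstream of it, was taken. This gave 45 peaks of 334857 in all, from 1 peak at CDKN2B to 12 at CDKN1B. The libraries were bulk ATAC-seq, in which the Tn5 transposase cuts and tags accessible DNA, from Ccd18-Co cells, an established human colon fibroblast line. All came from this 1 line, at up to passage 20.

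There were 18 libraries in 3 groups of 6. Unstimulated cells received no cytokine, and the labels do not say whether they received DMSO. The DMSO group received 3 pulses of TNF, OSM and IL-17A, each at 10 ng/ml, with IL-1B at 0.1 ng/ml. Each pulse lasted 72 h and was followed by 96 h of recovery. After a rest these cells were given DMSO, the solvent, for 5 days and were collected 2 weeks later. The belinostat group had the same pulses, then 250 nM belinostat, an inhibitor of histone deacetylases, for the same 5 days and with the same 2 weeks of washout. The belinostat and IL-1B doses are those of the labels. For IL-1B the paper's methods on these pulses give a lower concentration, while a legend gives the labels' value. That difference was not settled here. The paper's legends give a far higher belinostat concentration for its assays, and which of them these libraries received was not settled here. Belinostat was not given to unpulsed cells. The cytokine contrast (DMSO minus unstimulated) asks what the pulses left behind, the belinostat contrast (belinostat minus DMSO) what the later drug changed, and the residual contrast (belinostat minus unstimulated) how far drug-treated cells stood from cells never pulsed. The 3 contrasts share libraries, so their values are set side by side and are not independent of each other. The labels do not say whether the libraries of a group came from separate cultures, so p-values measure the spread between these libraries. In bulk libraries, fewer cells with an open site and less opening per cell cannot be told apart.

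CDKN1A (p21), CDKN1B (p27) and CDKN1C (p57) form the CIP/KIP family, which binds cyclin and cyclin-dependent kinase complexes. CDKN2A and CDKN2B lie next to each other and encode the INK4 inhibitors p16 and p15, which block CDK4 and CDK6 and so keep RB active. CDKN2A has a further start whose transcript encodes ARF, a protein that restrains MDM2, the ubiquitin ligase that degrades p53. CDKN1A, MDM2 and GDF15 are classical p53 targets, GDF15 is also induced by the integrated stress response, and loss of lamin B1, the product of LMNB1, is a common mark of senescent fibroblasts. Senescence in fibroblasts combines lasting arrest through these inhibitors with secretion of inflammatory factors. Histone deacetylase inhibitors are known to induce CDKN1A while the drug is present.

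Counts in peaks ran from 7077321 to 11352032 per unstimulated library, from 6488975 to 8066642 per DMSO library and from 4661678 to 6370845 per belinostat library. The share of reads in the 10000 strongest peaks was 35.4% to 39.0%, 31.8% to 35.2% and 28.4% to 34.5% in the same order. Across all peaks, the fold change fell with peak strength in each contrast: in the cytokine contrast its median was 0.55 (log2) in peaks of mean log2 CPM (the log2 of the count over the library's scaled total) below 0 and -0.37 in peaks above 5. So values are given on 2 scales, with TMM factors (1 factor per library) and with loess offsets, which set the typical change at each peak strength to 0. Start peaks of 8 of 8 fibroblast markers were present, at 8.14 to 65.1 CPM per kb in unstimulated cells. Of 10 markers of other cell types, 6 had one, at 1.41 to 3.62 CPM per kb, and 4 had none, PTPRC, CD79A and CDH5 among them.

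The sequences of 5 regions to which the results below return are shown, read from hg38. They are the 300 bases around the centre of the only member peak called in the belinostat contrast with TMM factors (GDF15, 11.8 kb before the start), of the only one that opened on these scales (GDF15, 0.9 kb after the start), of a CDKN2A peak that closed on both scales (7.5 kb after the ARF start) and of the CDKN1A peak with the largest fall (11.5 kb before the start), and the 200 bases before the CDKN2B start, the sole accessible site of that gene. Capitals mark matches, on either strand, to the AP-1 motif TGANTCA, the ATF4-CEBP element TGATGNAA, the GC box GGGCGG, the CCAAT box or the TEAD motif CATTCC.
GDF15 peak 11.8 kb before the start, chr19:18374227-18374526, plus strand: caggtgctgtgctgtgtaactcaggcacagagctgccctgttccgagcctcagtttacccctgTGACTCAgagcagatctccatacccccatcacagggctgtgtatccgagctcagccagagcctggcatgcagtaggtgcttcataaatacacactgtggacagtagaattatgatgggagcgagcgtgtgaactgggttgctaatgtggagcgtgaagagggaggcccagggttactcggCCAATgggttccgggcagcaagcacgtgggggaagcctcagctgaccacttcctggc
GDF15 peak 0.9 kb after the start, chr19:18386883-18387182, plus strand: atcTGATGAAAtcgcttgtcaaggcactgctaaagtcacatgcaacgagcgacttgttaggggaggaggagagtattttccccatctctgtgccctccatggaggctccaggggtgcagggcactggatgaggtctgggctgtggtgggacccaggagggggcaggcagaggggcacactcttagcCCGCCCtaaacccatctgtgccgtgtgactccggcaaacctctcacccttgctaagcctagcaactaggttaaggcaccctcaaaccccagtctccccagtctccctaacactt
CDKN2A peak 7.5 kb after the ARF start, chr9:21986785-21987084, plus strand: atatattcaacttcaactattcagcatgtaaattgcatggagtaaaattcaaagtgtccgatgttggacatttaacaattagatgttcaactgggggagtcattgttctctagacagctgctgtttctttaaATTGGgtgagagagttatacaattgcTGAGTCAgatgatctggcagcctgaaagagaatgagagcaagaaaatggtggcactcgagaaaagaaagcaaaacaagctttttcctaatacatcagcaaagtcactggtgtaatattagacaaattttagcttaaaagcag
CDKN1A peak 11.5 kb before the start, chr6:36667109-36667408, plus strand: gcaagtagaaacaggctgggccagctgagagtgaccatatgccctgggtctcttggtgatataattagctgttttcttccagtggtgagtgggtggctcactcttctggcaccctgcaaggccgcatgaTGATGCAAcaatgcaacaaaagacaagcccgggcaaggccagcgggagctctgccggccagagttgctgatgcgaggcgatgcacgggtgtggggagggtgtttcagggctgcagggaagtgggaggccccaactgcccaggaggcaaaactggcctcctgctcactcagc
CDKN2B, bases before the start, chr9:22009306-22009505, minus strand: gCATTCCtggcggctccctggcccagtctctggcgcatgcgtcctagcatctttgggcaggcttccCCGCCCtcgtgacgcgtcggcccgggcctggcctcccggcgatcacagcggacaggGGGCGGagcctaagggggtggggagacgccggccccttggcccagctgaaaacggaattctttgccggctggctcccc

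The AP-1 motif, bound by FOS and JUN dimers, stood in 4 of the 45 central windows (8.89%, against 17.8% of the windows of all peaks), among them the GDF15 and CDKN2A peaks printed above. The ATF4-CEBP element, bound in the integrated stress response, stood in 4 (8.89% against 5.09%), among them the printed GDF15 peak after the start and the CDKN1A peak. The GC box, bound by SP and KLF factors, stood in 18 windows (40% against 11.4%), including the start peaks of CDKN1A, CDKN1B, CDKN1C, p16, MDM2, GDF15 and LMNB1. The TEAD motif stood in 11 (24.4% against 21.3%) and the CCAAT box in 12 (26.7% against 31.4%). No window held the CRE TGACGTCA (1004 of 334857 windows), the E2F motif TTTCCCGC (0.382%), the ETS motif CCGGAAG (1.99%), the NF-kB motif (0.402%) or the p53 response element (0.0654%). The median GC content of the member windows was 55.7%, between 49.7% for all peaks and 67.7% for start peaks. These shares describe letters in a window and were not tested.

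All 9 annotated main starts of the member genes lay in a peak, as CDKN2A has 2 starts. In unstimulated cells the most accessible was that of CDKN1A, at 66.7 ± 8.49 CPM per kb (mean ± SD, n = 6), above 96.7% of the 15416 start peaks of protein-coding genes. LMNB1 followed at 43.6 ± 4.41 (percentile 89.5) and CDKN2B at 36.9 ± 5.53 (84.4). CDKN1B at 27.1 ± 3.15 (72.3), CDKN1C at 26.8 ± 1.3 (71.7) and MDM2 at 24.3 ± 1.56 CPM per kb (66.9) lay within 1 SD of each other in part. The lowest were the ARF start of CDKN2A at 13.4 ± 1.43 (41.6), its p16 start at 10.7 ± 1.6 (35.4) and the GDF15 start at 9.92 ± 2.08 CPM per kb (33.3), below the median start peak of 16.8. So the starts of p16 and GDF15 were accessible, though less than most, before any cytokine was given.

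With TMM factors, 18 of the 45 member peaks closed in the cytokine contrast and 0 opened, at an edgeR adjusted p under 0.05. Of all peaks 9.73% closed and 9.51% opened, and of all start peaks 54.9% closed. Called member peaks were mostly strong ones: of the 16 with a mean log2 CPM of at least 3, 13 closed, and 66.4% of all peaks of that strength did. The median member fold change was -0.30 (log2), against 0.13 over all peaks and -0.33 over start peaks. Scaling by library totals gave 2 closed (the CDKN2B start and the CDKN1B peak 3.2 kb before the start) and 2 opened (the GDF15 peak 0.9 kb after the start and a LMNB1 intron peak 23.1 kb after the start), where 3.25% of all peaks closed and 16.2% opened. Loess offsets gave 0 of either (all peaks: 1.9% closed, 2.0% opened), with 3 opened and 5 closed at an unadjusted p under 0.05. Without unstimulated replicate 1, or without unstimulated replicate 6, 11 peaks closed and 0 opened, where 6.71% and 6.18% of all peaks closed and 6.32% and 5.52% opened.

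In the belinostat contrast 1 member peak closed (all peaks: 1.75% closed, 0.607% opened, and 0.714% of start peaks closed), and none of the 9 starts was called. Unadjusted p-values under 0.05 went to 5 closing and 1 opening member peaks, and to 25729 closing and 27502 opening of all 334857 peaks. The 5 closing ones were all among the 16 members of mean log2 CPM at least 3. Of all 29745 peaks of that strength, 8558 had such a p-value with a fall. The median member fold change was -0.20, against 0.01 over all peaks, -0.11 over start peaks and -0.15 over peaks of mean log2 CPM at least 3. Of the 16 strong member peaks 1 closed, against 9.83% of all peaks of that strength. With loess offsets 0 were called (all peaks: 1.51% closed, 0.945% opened), with 3 closing and 1 opening at an unadjusted p under 0.05.

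In the residual contrast 20 member peaks closed and 1 opened (all peaks: 13.7% closed, 16.8% opened), and 9 of 9 starts closed, where 64.2% of all start peaks did. Of the 16 strong member peaks 15 closed, against 84.9% of all peaks of that strength. The median member fold change was -0.41, beside 0.20 over all peaks and -0.44 over start peaks. Library totals gave 13 closed and 4 opened (all peaks: 6.31% closed, 30.4% opened). With loess offsets 3 closed and 1 opened (all peaks: 4.92% closed, 3.82% opened), none of them a start, and the median was -0.05. These were the printed CDKN2A peak and the printed GDF15 peak after the start, the MDM2 peak 4.6 kb before the start and, named here because it was called, a CDKN1B intron peak 30.2 kb before the start (-1.29 ± 0.41, adjusted p = 0.0302, but -0.79 ± 0.42 and 0.137 with TMM factors). That CDKN1B peak also lies in GPR19. It was weak, at 4 to 8, 2 to 9 and 2 to 5 reads per library in the unstimulated, DMSO and belinostat groups. Over the 9 member starts the median change with TMM factors was -0.39, -0.21 and -0.55 in the cytokine, belinostat and residual contrasts, beside -0.33, -0.11 and -0.44 over all start peaks. With loess offsets these medians were -0.01, -0.02 and -0.04 over the member starts and 0.02, 0.05 and 0.07 over all start peaks. On that scale 6.91% of all start peaks opened and 1.32% closed in the residual contrast.

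**Figure D1:**
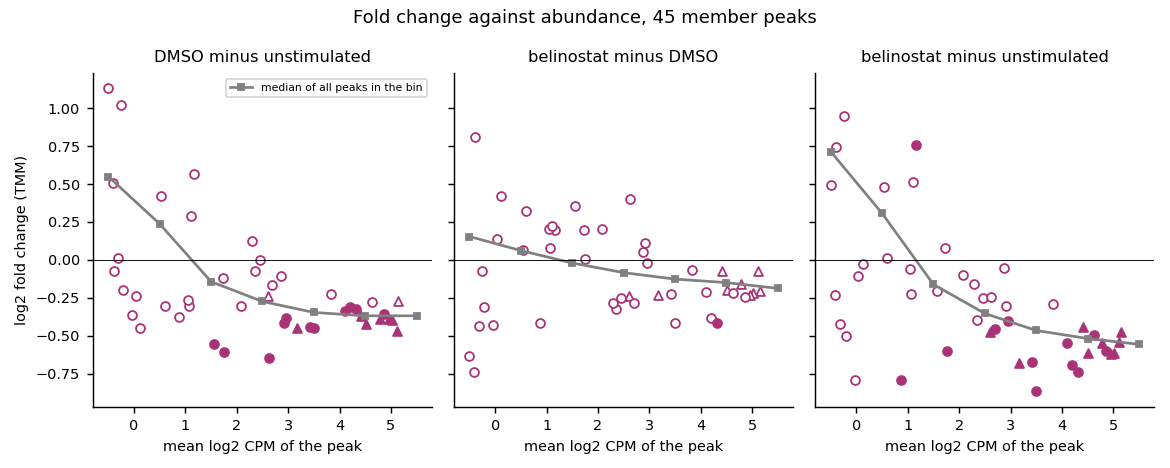
Log2 fold change with TMM factors (y axis) against the mean log2 CPM over 18 libraries (x axis) for the 45 member peaks, 1 panel per contrast. Triangles are start peaks, circles other peaks, filled symbols an adjusted p under 0.05, and grey squares the median of all peaks in each strength bin. In the cytokine contrast the 9 start peaks lie between -0.47 and -0.24, along the grey line, which runs from 0.55 to -0.37.

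CDKN1A, at chr6:36676460-36687337 on the plus strand, held 5 peaks. At its start peak (chr6:36678301-36678919, over the UTR of exon 1, and over the lncRNA DINOL), the log2 CPM was 5.16 to 5.66 (median 5.34) in the unstimulated libraries, 4.97 to 5.39 (median 5.06) in the DMSO libraries and 4.70 to 5.11 (median 4.91) in the belinostat libraries. The unstimulated and DMSO libraries overlapped, and all belinostat libraries lay below all unstimulated ones. The fold change was -0.27 ± 0.11 (log2 ± SE) in the cytokine contrast, with an edgeR adjusted p of 0.0555, and -0.21 ± 0.11 (0.335) in the belinostat contrast. The residual change was -0.48 ± 0.11 (0.000285). The start of p21 thus stood lowest after belinostat on this scale, while loess offsets turned the sign in 2 contrasts (0.13 in the cytokine and 0.11 in the residual contrast, adjusted p = 0.189 and 0.238). Over all start peaks the loess medians in these 2 contrasts were also above 0, at 0.02 and 0.07. The cytokine change passed without DMSO replicate 3 (-0.34, 0.0162), with the replicate block (0.0353), with only the 2 groups (0.022), with the filter at an average log2 CPM of 0 (0.0442) and with TMM factors from the weaker peaks (-0.73, 0.0042).

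The CDKN1A peak 11.5 kb before the start (chr6:36666903-36667613), outside the gene body and printed above, changed more. Its log2 CPM was 4.30 to 4.73 (median 4.45) in the unstimulated libraries, 3.99 to 4.45 (median 4.14) in the DMSO libraries and 3.58 to 4.13 (median 3.77) in the belinostat libraries. Its highest belinostat library was below its lowest unstimulated one, and neighbouring groups overlapped. The residual change was -0.69 ± 0.12 (edgeR adjusted p = 1.69e-06), made up of -0.31 ± 0.11 (0.0415) and -0.38 ± 0.12 (0.0695) in the other contrasts. With loess offsets these were -0.16, 0.05 and -0.21, with adjusted p of 0.262, 0.752 and 0.235. The cytokine call was lost in 9 of the 12 fits that left out 1 library, with adjusted p up to 0.162. It was also lost with DESeq2 (0.0964), with TMM factors from 10 kb bins (0.0765) and with library totals (0.46). The belinostat change passed with the filter at an average log2 CPM of 0 (0.0489), without belinostat replicate 6 (0.0331) and without DMSO replicate 5 (0.0487). Among the peaks inside the gene, the one 1.5 kb after the start (chr6:36679623-36680771) had the largest cytokine change, -0.36 ± 0.11 (0.014), with 0.03 under loess offsets.

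CDKN1B, at chr12:12685498-12722369 on the plus strand, held 12 peaks, 6 of which also lie in GPR19, the gene next to it. At its start peak (chr12:12716680-12717712), the log2 CPM was 4.66 to 5.03 (median 4.77) in the unstimulated libraries, 4.13 to 4.72 (median 4.38) in the DMSO libraries and 3.96 to 4.52 (median 4.15) in the belinostat libraries. All belinostat libraries were below all unstimulated libraries. The start closed in the cytokine contrast, by -0.42 ± 0.11 (edgeR adjusted p = 0.00503), and in the residual contrast, by -0.62 ± 0.12 (1.05e-05). The belinostat change was -0.20 ± 0.12 (0.408), and loess offsets left -0.05, -0.07 and -0.02 in the same order.

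An intronic CDKN1B peak 3.2 kb before the main start (chr12:12713888-12714404) had the largest cytokine fall of all member peaks. Its log2 CPM was 2.60 to 3.07 (median 2.93) in the unstimulated libraries, 2.07 to 2.59 (median 2.19) in the DMSO libraries and 1.80 to 3.39 (median 2.70) in the belinostat libraries. All DMSO libraries were below all unstimulated ones, and the belinostat libraries spread over the range of both. The cytokine change was -0.64 ± 0.16 (edgeR adjusted p = 0.003) with TMM factors and -0.38 (0.117) with loess offsets. The belinostat change was 0.40 ± 0.17 (0.224, 95% interval 0.06 to 0.74), the opposite sign, and the residual change -0.24 ± 0.16 (0.244). Without belinostat replicate 1, the highest library of the group, the residual change was -0.43 (0.0311).

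CDKN1C, an imprinted gene at chr11:2883213-2885775 on the minus strand, held 4 peaks, 2 of them in the antisense gene SLC22A18AS. At its start peak (chr11:2884953-2886438, exons 1 and 2), the log2 CPM was 5.21 to 5.43 (median 5.33) in the unstimulated libraries, 4.65 to 5.22 (median 4.89) in the DMSO libraries and 4.38 to 5.23 (median 4.63) in the belinostat libraries. The unstimulated libraries were tightly grouped, and 1 DMSO and 1 belinostat library reached into their range. The start closed by -0.40 ± 0.11 (edgeR adjusted p = 0.00623) in the cytokine contrast and by -0.61 ± 0.11 (5.76e-06) in the residual contrast. The belinostat change was -0.22 ± 0.11 (0.337), and -0.34 (0.0499) without belinostat replicate 1, its highest library. Loess offsets left -0.01, -0.04 and -0.04.

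**Figure D2:**
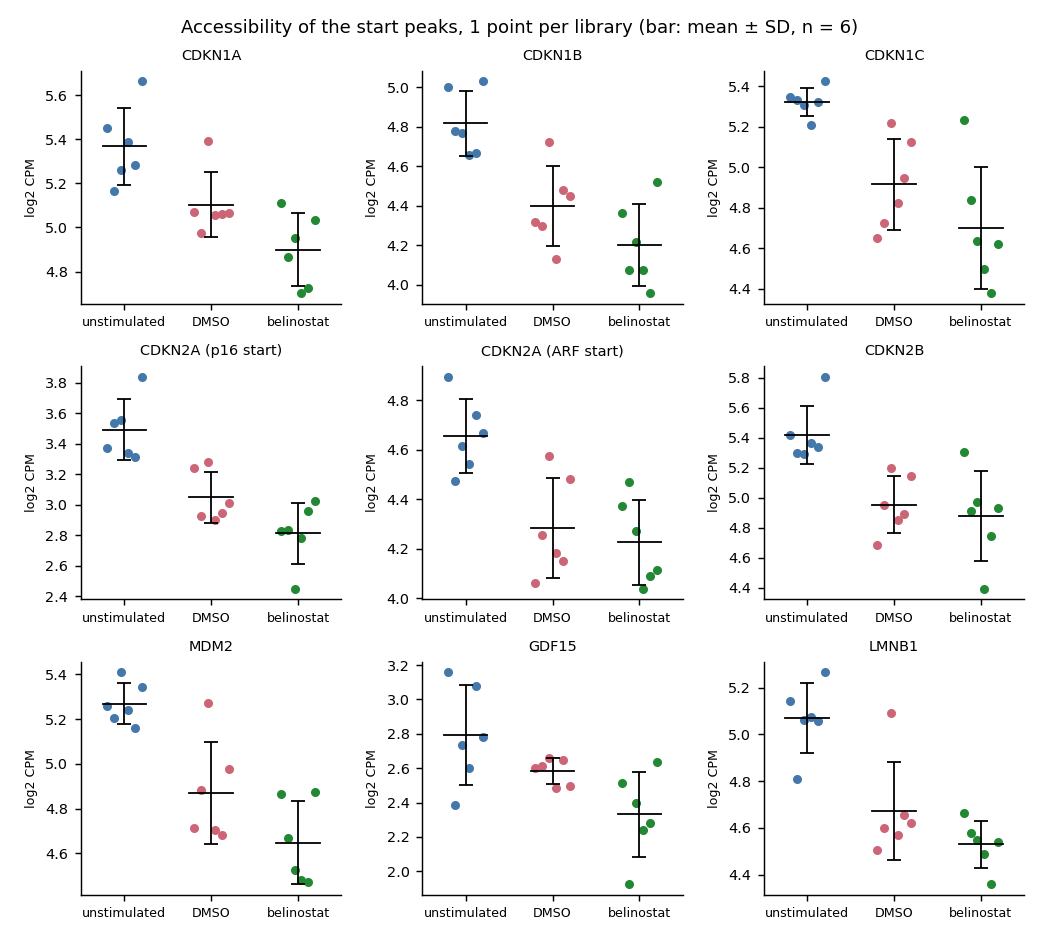
Log2 CPM (y axis) of the 9 start peaks in each of the 18 libraries, with the groups on the x axis. Points are libraries, and the bar and whiskers are the mean ± SD (n = 6). Group means step down from unstimulated to DMSO to belinostat at every start, from 5.37 to 5.10 to 4.90 at CDKN1A.

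The INK4 region on chromosome 9 held 6 peaks, 5 in CDKN2A (chr9:21967752-21995301, minus strand) and 1 in CDKN2B (chr9:22002903-22009305, minus strand). An annotated lncRNA overlaps all 6, and the lncRNA CDKN2B-AS1 overlaps the peaks of the ARF start and the CDKN2B start. ATAC-seq does not resolve which transcript a peak belongs to. At the p16 start (chr9:21974389-21975416), the log2 CPM was 3.31 to 3.84 (median 3.45) in the unstimulated libraries, 2.90 to 3.28 (median 2.98) in the DMSO libraries and 2.45 to 3.02 (median 2.83) in the belinostat libraries. All DMSO and all belinostat libraries were below all unstimulated ones. The p16 start closed by -0.45 ± 0.13 in the cytokine contrast (edgeR adjusted p = 0.0114) and by -0.68 ± 0.14 in the residual contrast (7.17e-05), with -0.23 ± 0.15 (0.44) in the belinostat contrast. The cytokine call was lost without unstimulated replicate 6 (0.0643), and with loess offsets the changes were -0.14 (0.51), -0.23 (0.219) and -0.10 (0.73).

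At the ARF start (chr9:21994237-21996107), the log2 CPM was 4.47 to 4.90 (median 4.64) in the unstimulated libraries, 4.06 to 4.58 (median 4.22) in the DMSO libraries and 4.04 to 4.47 (median 4.19) in the belinostat libraries. Here the belinostat libraries fell within the range of the DMSO libraries, apart from the lowest of them, and lay below the lowest unstimulated one. The changes were -0.37 ± 0.11 (edgeR adjusted p = 0.0137), -0.07 ± 0.12 (0.796) and -0.44 ± 0.12 (0.00198) in the cytokine, belinostat and residual contrasts. The first was lost without unstimulated replicate 1 (0.0752). Loess offsets gave -0.00, 0.10 and 0.09, so that the sign turned in the belinostat and residual contrasts.

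CDKN2B, the gene of p15, had a single peak, over its start (chr9:22008619-22009779), where the log2 CPM was 5.29 to 5.81 (median 5.35) in the unstimulated libraries, 4.68 to 5.20 (median 4.92) in the DMSO libraries and 4.39 to 5.31 (median 4.92) in the belinostat libraries. All DMSO libraries were below all unstimulated ones, and the highest belinostat library reached the lowest unstimulated ones. It had the largest cytokine change of the 9 starts, -0.47 ± 0.11 (edgeR adjusted p = 0.00136), a belinostat change of -0.07 ± 0.11 (0.781, 95% interval -0.29 to 0.15) and a residual change of -0.54 ± 0.11 (5.9e-05). With loess offsets across peaks the 3 values were -0.07, 0.11 and 0.04. The bases before this start hold a GC box on each strand.

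The intronic CDKN2A peak 7.5 kb after the ARF start (chr9:21986819-21987050), whose AP-1 match is shown above, was weak, at 10 to 21, 8 to 17 and 4 to 10 reads per library in the 3 groups. Its log2 CPM was 0.83 to 1.56 (median 1.05) in the unstimulated libraries, 0.44 to 1.48 (median 0.71) in the DMSO libraries and 0.00 to 0.82 (median 0.55) in the belinostat libraries. All belinostat libraries lay below all unstimulated ones, the highest at 0.82 and the lowest at 0.83. It closed in the residual contrast by -0.79 ± 0.28 (edgeR adjusted p = 0.0231) and, unlike the starts, did so with loess offsets too (-0.88, 0.0295). The call was lost with DESeq2 (0.0829), with library totals (0.167), without unstimulated replicate 1 (0.0816) and without belinostat replicate 4 (0.0781). Its cytokine and belinostat changes were -0.38 ± 0.25 (0.284) and -0.41 ± 0.30 (0.489).

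**Figure D3:**
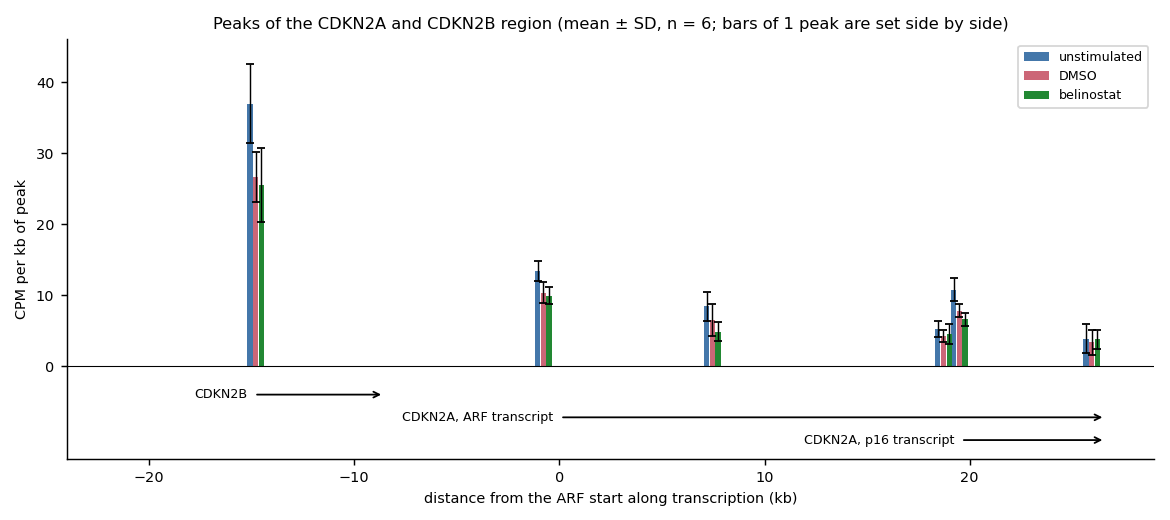
Accessibility in CPM per kb of peak (y axis) of the 6 peaks of CDKN2A and CDKN2B, placed by distance from the ARF start along transcription (x axis, kb), with arrows for the transcripts. Bars are group means ± SD (n = 6) and stand side by side at each peak. The CDKN2B start stands highest, at 36.9 CPM per kb in unstimulated cells, above the ARF start at 13.4 and the p16 start at 10.7.

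Ratios of starts within a library, chosen after the values had been seen, showed no shift between the 2 CDKN2A starts beyond the spread. The log2 ratio of p16 to ARF was -1.18 ± 0.28 (SD, n = 6), -1.26 ± 0.22 and -1.44 ± 0.30 in unstimulated, DMSO and belinostat libraries. The residual difference was -0.26 (exact permutation p = 0.152, two-sided, Benjamini-Hochberg adjusted p = 0.545 over 18 tests). The log2 ratio of the CDKN2B start to the ARF start was 0.77 ± 0.22, 0.68 ± 0.05 and 0.65 ± 0.22. The smallest p of the 18 was 0.0671 (exact permutation test), for the CDKN1A peak 11.5 kb upstream over the CDKN1A start in the residual contrast, a difference of -0.23 (adjusted 0.545), and 6 against 6 libraries can reach 0.00216.

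MDM2, at chr12:68808177-68845544 on the plus strand, held 4 peaks. At its start peak (chr12:68807534-68809114), the log2 CPM was 5.16 to 5.41 (median 5.25) in the unstimulated libraries, 4.68 to 5.27 (median 4.80) in the DMSO libraries and 4.47 to 4.87 (median 4.60) in the belinostat libraries. All belinostat libraries were below all unstimulated ones, and the DMSO libraries spread over both. The start closed by -0.39 ± 0.11 (edgeR adjusted p = 0.00652) in the cytokine and by -0.62 ± 0.11 (3.07e-06) in the residual contrast, with -0.23 ± 0.11 (0.288) in the belinostat contrast. Loess offsets left -0.00, -0.04 and -0.04.

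The MDM2 peak 4.6 kb before the start had the largest fall of all member peaks in the residual contrast. Its log2 CPM was 3.59 to 4.10 (median 3.87) in the unstimulated libraries, 3.10 to 3.69 (median 3.43) in the DMSO libraries and 2.71 to 3.51 (median 2.96) in the belinostat libraries. Group medians stepped down, and no belinostat library reached the unstimulated range. The residual change was -0.87 ± 0.14 (edgeR adjusted p = 1.28e-07) with TMM factors and -0.40 ± 0.11 (0.00848) with loess offsets, and it stayed past the threshold in all 20 alternative fits. The cytokine part was -0.45 ± 0.13 (0.00759) and the belinostat part -0.42 ± 0.14 (0.0984), and with loess offsets -0.13 (0.482) and -0.28 (0.203). Without belinostat replicate 3 the belinostat change was -0.53 (0.0377).

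GDF15, at chr19:18374731-18389176 on the plus strand, held 7 peaks, the farthest of which also lies in PGPEP1. At its start peak (chr19:18385641-18386321), the log2 CPM was 2.38 to 3.16 (median 2.76) in the unstimulated libraries, 2.49 to 2.66 (median 2.61) in the DMSO libraries and 1.93 to 2.63 (median 2.34) in the belinostat libraries. The groups overlapped in each contrast. The start changed by -0.24 ± 0.15 (edgeR adjusted p = 0.263) in the cytokine contrast, by -0.24 ± 0.17 (0.476) in the belinostat contrast and by -0.48 ± 0.16 (0.0172) in the residual contrast. The last, the only call, was lost without unstimulated replicate 1 (0.0843), unstimulated replicate 5 (0.0511) or belinostat replicate 2 (0.0539), with library totals (-0.17, 0.381) and with DESeq2 (-0.41, 0.0682), and the value was -0.10 with loess offsets.

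The GDF15 peak 11.8 kb before the start (chr19:18373948-18374804), over the first exon of a longer GDF15 transcript, was more accessible per kb than the start and was the only member peak called in the belinostat contrast with TMM factors and all libraries. Its log2 CPM was 4.47 to 4.76 (median 4.65) in the unstimulated libraries, 3.99 to 4.56 (median 4.27) in the DMSO libraries and 3.68 to 4.15 (median 3.90) in the belinostat libraries. The belinostat libraries overlapped the lower DMSO libraries and lay below all unstimulated ones. The belinostat change was -0.42 ± 0.12 (edgeR adjusted p = 0.0369), after a cytokine change of -0.32 ± 0.11 (0.0307), and the residual change was -0.74 ± 0.12 (2.35e-07). With loess offsets the 3 were -0.25 (0.104), 0.04 (0.79) and -0.20 (0.0997). The belinostat call was also lost in a fit of the 2 groups alone (0.0685) and without belinostat replicate 2, 5 or 6 or DMSO replicate 2, 3 or 6, with adjusted p up to 0.164. The residual call stood in every fit but the loess one, and the cytokine call was lost in 7 of 12 fits without 1 library. The cytokine call was also lost with DESeq2 (0.067), with TMM factors from 10 kb bins (0.0566) and with library totals (0.354).

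The GDF15 peak 0.9 kb after the start (chr19:18386766-18387299), in the intron of the main transcript, was the only member peak that opened with TMM factors or loess offsets. Its log2 CPM was 0.49 to 1.04 (median 0.73) in the unstimulated libraries, 0.23 to 1.69 (median 1.32) in the DMSO libraries and 1.06 to 2.00 (median 1.30) in the belinostat libraries. All belinostat libraries were above all unstimulated ones, and the DMSO libraries spread over both groups. The peak was weak, at 7 to 18, 6 to 22 and 9 to 20 reads per library. The residual change was 0.76 ± 0.25 (edgeR adjusted p = 0.0151), and 0.80 (0.0309) with loess offsets. It was lost with TMM factors from the weaker peaks (0.19, 0.636) and without belinostat replicate 2 (0.0661). The cytokine change was 0.57 ± 0.25 (0.0908), which passed without DMSO replicate 3, its lowest library (0.70, 0.0312), and with library totals (0.78, 0.0224). The peak 4.1 kb before the start (chr19:18381926-18382227) had the largest cytokine fall of the gene, -0.56 ± 0.21 (0.0471), a call lost in 8 of 12 fits without 1 library. This call was also lost with loess offsets (-0.43, 0.224), DESeq2 (0.147), TMM factors from 10 kb bins (0.0731) and library totals (0.229).

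**Figure D4:**
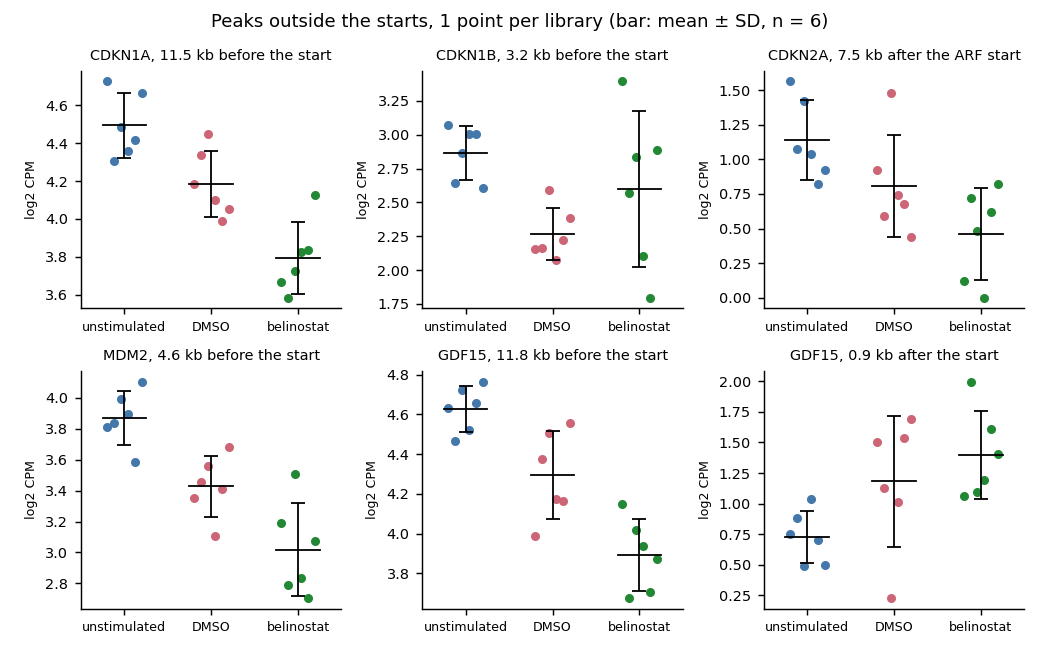
Log2 CPM (y axis) of 6 member peaks outside the starts in each of the 18 libraries, with the groups on the x axis. Points are libraries, and the bar and whiskers are the mean ± SD (n = 6). The MDM2 and GDF15 upstream peaks step down to means of 3.02 and 3.89 after belinostat, the CDKN1B peak falls to 2.27 with DMSO and stands at 2.60 after belinostat, and the GDF15 peak after the start rises from 0.73 to 1.40.

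LMNB1, at chr5:126776623-126837020 on the plus strand, held 7 peaks. At its start peak (chr5:126776467-126777233, shared with the lncRNA LMNB1-DT), the log2 CPM was 4.81 to 5.27 (median 5.07) in the unstimulated libraries, 4.51 to 5.09 (median 4.61) in the DMSO libraries and 4.36 to 4.66 (median 4.54) in the belinostat libraries. All belinostat libraries lay below all unstimulated ones, and 5 of 6 DMSO libraries did so too. The start closed by -0.39 ± 0.11 (edgeR adjusted p = 0.00654) and by -0.55 ± 0.11 (4.31e-05) in the cytokine and residual contrasts, with -0.16 ± 0.11 (0.492) in the belinostat contrast. Loess offsets left -0.01, 0.02 and 0.03. The neighbouring peak 0.5 kb after the start (chr5:126777383-126777950) had the largest falls among the called peaks of the gene, -0.44 ± 0.13 (0.0108) and -0.67 ± 0.14 (5.74e-05), and loess offsets gave -0.12 and -0.22. The peak 1.3 kb after the start (chr5:126778135-126778797) closed in the residual contrast as well, by -0.50 ± 0.12 (0.000396), with -0.28 ± 0.11 (0.0601) in the cytokine contrast and, with loess offsets, 0.040 and 0.090. The other LMNB1 peaks, 23.1 kb or more into the gene, were weak, and none was called in any contrast with TMM factors or loess offsets.

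Summed over body and 10 kb upstream, all 8 member genes were lower in the cytokine contrast with TMM factors, from -0.26 (GDF15) to -0.47 (CDKN2B), with edgeR adjusted p from 0.00044 to 0.00654. Of the 19180 protein-coding genes with a peak 62.5% were lower, with a median of -0.26. All 8 were lower in the residual contrast, from -0.42 (CDKN1B) to -0.65 (MDM2), where 66.8% of all genes were (median -0.34). In the belinostat contrast 0 of 8 passed, with 2.04% of all genes lower at the adjusted threshold. At an unadjusted p under 0.05, 4 of the 8 were lower, as were 3533 of all 19180 genes. The changes there ran from -0.26 ± 0.09 (MDM2, adjusted p = 0.119, 95% interval -0.45 to -0.08) and -0.23 ± 0.08 (CDKN1A, 0.121, -0.39 to -0.07) to -0.04 ± 0.09 (CDKN1B, 0.829, -0.22 to 0.14). Without belinostat replicate 1, 5 of them were lower (CDKN1A, CDKN1C, MDM2, GDF15 and LMNB1), as were 22.6% of all genes in that fit, with 1.45% higher.

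With loess offsets across genes, CDKN2B alone was lower in the cytokine contrast (-0.20 ± 0.07, edgeR adjusted p = 0.0439), where 8.35% of all genes were. In the residual contrast CDKN2B (-0.19 ± 0.08, 0.0457) and MDM2 (-0.27 ± 0.05, 0.000442) were lower, beside 18.2% of all genes. No member passed in the belinostat contrast, the largest value being -0.16 ± 0.06 for MDM2 (0.112). The CDKN2B value differs from that of its single peak because the typical change at each strength was taken over genes and not over peaks. The interval for CDKN1A in the belinostat contrast was -0.18 to -0.01 on this scale.

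**Figure D5:**
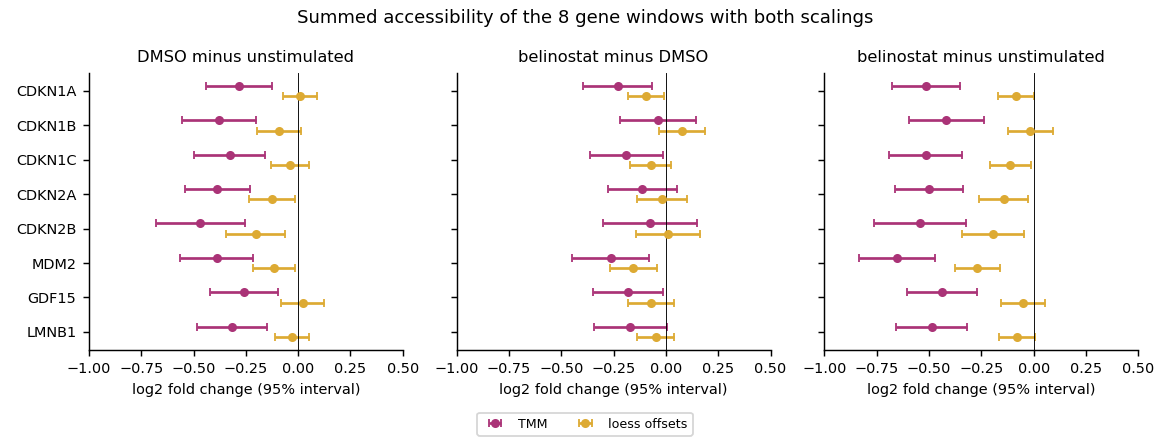
Log2 fold change (x axis) of the counts summed over each of the 8 member genes and its 10 kb upstream, 1 panel per contrast. Points are estimates and lines 95% intervals, purple with TMM factors and yellow with loess offsets. With TMM factors all 8 lie below 0 in the cytokine and residual panels. With loess offsets the intervals of CDKN2A, CDKN2B and MDM2 lie below 0 in the cytokine panel. Those of CDKN1A and MDM2 do so in the belinostat panel, and those of CDKN1C, CDKN2A, CDKN2B and MDM2 in the residual panel. The intervals are not adjusted for the number of genes. At an adjusted p under 0.05, only CDKN2B (cytokine -0.20, residual -0.19) and MDM2 (residual -0.27) passed with loess offsets.

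Other genes of the same pathways were taken from lists of their own. Of all genes 62.5%, 2.04% and 66.8% were lower and 10.9%, 0.125% and 13.0% higher with TMM factors in the cytokine, belinostat and residual contrasts. With loess offsets 8.35%, 2.63% and 18.2% of all genes were lower and 14.0%, 2.61% and 20.4% higher in the same order, and the counts of each list stand beside these shares. Of 22 p53 targets and regulators, 21, 1 and 22 were lower and none higher with TMM factors in the cytokine, belinostat and residual contrasts. In the cytokine contrast the smallest p-values were those of GADD45A, a p53 target in growth arrest (-0.47 ± 0.08, 0.000138, log2 ± SE and edgeR adjusted p), PHLDA3 (-0.42 ± 0.08, 0.000376) and TP53I3 (-0.40 ± 0.08, 0.000386). The 1 in the belinostat contrast was RRM2B, a ribonucleotide reductase subunit (-0.33 ± 0.08, 0.0253). With loess offsets 1 was higher and 2 lower in the cytokine contrast, 0 and 2 in the belinostat contrast (RRM2B, -0.20, 0.00572, and PHLDA3, -0.20, 0.0284), and 1 and 8 in the residual contrast.

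Of 24 cyclin, CDK and RB-E2F genes, 19, 0 and 21 were lower and none higher with TMM factors, led in the cytokine contrast by CDK6, a target of p15 and p16 (-0.42 ± 0.08, 0.000287), CDC25A (-0.37 ± 0.07, 0.000362) and CCND3 (-0.36 ± 0.07, 0.000428). With loess offsets 0 were higher and 2 lower in the cytokine contrast, 2 and 0 in the belinostat contrast, and 4 and 5 in the residual contrast. The 2 that were higher after belinostat were CDK6 (0.27, 6.62e-05) and CCND3, the gene of cyclin D3 (0.13, 0.00959). With TMM factors their belinostat values were 0.14 ± 0.08, 0.301 and -0.00 ± 0.07, 0.996.

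All 14 Polycomb and INK4 locus regulators were lower in the cytokine and residual contrasts with TMM factors, among them ETS1 (-0.36 ± 0.07, 0.000338 in the cytokine contrast), ETS2 (-0.42 ± 0.09, 0.000437) and EED, a subunit of Polycomb repressive complex 2 (-0.39 ± 0.08, 0.000459). In the belinostat contrast 1 was lower, ETS1, known as an activator of p16 (-0.26 ± 0.07, 0.0469, and -0.14, 0.00288 with loess offsets). With loess offsets 0 were higher and 3 lower, 1 and 1, and 1 and 5 in the cytokine, belinostat and residual contrasts. All 12 genes of the nuclear lamina and senescence chromatin were lower in the cytokine and residual contrasts and none in the belinostat contrast, with MACROH2A1 (-0.39 ± 0.08, 0.000342) and HMGB1 (-0.39 ± 0.08, 0.000374) leading the cytokine contrast. With loess offsets 0 were higher and 1 lower, 0 and 1, and 1 and 5. LMNA, the lamin A gene, was the 1 in the belinostat contrast (-0.11, 0.0239).

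Of 18 secreted factors of senescent fibroblasts, 8, 2 and 13 were lower and none higher with TMM factors. The 2 in the belinostat contrast were MMP10, a matrix metalloproteinase (-0.50 ± 0.12, 0.0271, and -0.52, 0.0121 with loess offsets), and IGFBP5 (-0.29 ± 0.08, 0.0469, and -0.15, 0.146). With loess offsets 2 were higher and 2 lower, 0 and 2, and 1 and 7. Of 8 fibroblast markers 7, 0 and 7 were lower with TMM factors, and 2, 0 and 2 with loess offsets. Of 10 markers of other cell types 2 were higher (CD3E and PECAM1) and 2 lower in the cytokine contrast, 0 and 1 in the belinostat contrast, and 3 and 3 in the residual contrast. With loess offsets these were 3 and 0, 0 and 1, and 4 and 1. Their part in the member results was not tested.

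By the root mean square difference of mean-centred log2 CPM over the 18 libraries, the genes most like CDKN1A were LTN1 (0.0453), BMPER (0.0503) and PITPNM1 (0.0512), of 16504 genes compared with a median of 0.143. Among those most like LMNB1 were CUTA (0.0471) and GEMIN6 (0.0474), with a median of 0.132. LTN1 changed by -0.30 and -0.25 in the cytokine and belinostat contrasts, beside -0.28 and -0.23 for CDKN1A. These are descriptions over libraries that share depth and treatment.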

How the data were processed

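Accessibility was measured by bulk ATAC-seq (Omni-ATAC) in 18 libraries of Ccd18-Co cells. Per the methods, the authors ran ENCODE's pipeline for ATAC-seq on build hg38, called peaks with MACS2, merged them into 1 consensus set and counted fragments per peak with csaw, leaving out blacklisted regions. Per the labels, ChIPseeker 1.34.1 was also used. The deposited table holds raw counts for 334857 peaks, and its columns were matched to libraries by sample number. The authors scaled on background bins of 10 kb, which are not used here. Doses follow the labels, and the belinostat concentration in the paper's legends is far higher. The IL-1B concentration in the paper's methods for these pulses is lower than that of the labels.

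Counts were fitted over all peaks with edgeR 4.0.16 (quasi-likelihood test, R 4.3.3), 1 mean per group, TMM factors and Benjamini-Hochberg adjustment over all peaks. No peak was removed by the filter (average log2 CPM of -3). Levels are log2 CPM with a prior count of 2, and intervals are the estimate ± 1.96 SE. Genes were taken from GENCODE release 44 on hg38. A start peak overlaps the start of a MANE transcript. Gene sums, over 19180 protein-coding genes, used the same factors. Loess offsets (limma 3.58.1, span 0.3) were fitted per library against peak or gene strength. Motifs were searched on both strands of each peak's central 300 bases. No 2 libraries of a group held the same counts: chi-square per peak was 1.03 to 2.32 over 45 pairs of the same group. Counting error alone gives about 1, so this cannot tell libraries of 1 culture from those of separate cultures. Pairs across groups were not compared. Fits were tested on simulated data with known changes. Those data held no fall of the fold change with peak strength, so that test does not bear on the choice of scaling. Other fits used library totals, TMM factors from the weaker 50% of peaks or from peak sums in 10 kb bins, DESeq2 1.42.0, a filter at an average log2 CPM of 0, a replicate block, only the 2 groups compared, a 3 kb window and each library left out. Counting error and the number of libraries limit precision, and intervals on weak peaks are wide.

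Members and lists were chosen with earlier results of these data known. Named are the start peaks, for each gene and contrast the called peak with the largest change in each direction, every peak called in the belinostat contrast and, per list, up to 3 genes with the smallest p. Peaks named only in the loess comparison were chosen after their values were seen. Some genes and 1 sequence that these rules name are not reported here.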

Additional observations from a re-analysis of the deposited data

Results flagged for a closer look

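In groups of 6 libraries, a highest or lowest library was marked when its gap to the next exceeded Dixon's 95% critical share of the group's range, which chance does in about 1 of 20 groups. Of 78 groups of libraries, 6 were marked. DMSO replicate 3 was the highest of its group at the CDKN1A start (log2 CPM 5.39, next 5.07), at the LMNB1 start (5.09, next 4.66) and over the LMNB1 gene sum (6.33, next 5.99). Unstimulated replicate 6 was the highest of its group at the CDKN2B start (5.81, next 5.42), which is also the gene sum of CDKN2B. Belinostat replicate 1 was the highest of its group at the LMNB1 peak 0.5 kb after the start (3.76, next 3.05).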

How the results depend on the processing

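The number of member peaks called in the cytokine contrast, 18 with TMM factors, was 4 with library totals, 28 with TMM factors from weaker peaks, 0 with loess offsets and 11 with DESeq2, and 11 to 20 with 1 library left out. With TMM factors from 10 kb bins it was 12. Of all 334857 peaks, 54265 opened and 10894 closed with library totals, and 7513 and 84230 with TMM factors from weaker peaks. These numbers were 15215 and 18587 with DESeq2, and 36503 and 26177 with TMM factors from 10 kb bins. Without unstimulated replicate 1 or 6 (11 member peaks each), 6.71% and 6.18% of all peaks closed. In the belinostat contrast the 1 became 0 with TMM factors from weaker peaks, with loess offsets and with only the 2 groups, 2 with the stricter filter (the upstream CDKN1A peak was added), and 0 to 2 with 1 library left out. Of all peaks, 328 opened and 3390 closed with TMM factors from weaker peaks, and 3163 and 5070 with loess offsets. With only the 2 groups 1616 opened and 4841 closed, and with the stricter filter 1888 and 6726 of 200098. In the residual contrast the 21 became 32 with TMM factors from weaker peaks and 4 with loess offsets, and 17 to 24 with 1 library left out. All-peak shares for most fits without 1 library are not given here. The ranges over those fits are thus not read as a trait of the member peaks. Of all peaks, 8850 opened and 103354 closed with TMM factors from weaker peaks, and 12785 and 16485 with loess offsets. Member genes called lower numbered 8, 0 and 8, and were 4 (library totals), 1 (loess offsets) and 2 (DESeq2) in the cytokine contrast, 2 (loess offsets) and 5 (DESeq2) in the residual contrast, and 0 to 5 with 1 library left out in the belinostat contrast. Of all 19180 genes, 3712 (library totals), 1601 (loess offsets) and 2244 (DESeq2) were lower in the cytokine contrast. In the residual contrast 3499 (loess offsets) and 4198 (DESeq2) were lower. In the belinostat contrast 22.6% were lower without belinostat replicate 1. Leaving out a library kept all 8 member genes lower in the other 2 contrasts, where 62.5% and 66.8% of all genes were lower with every library in. The shares of all genes in the fits without a library are not given for these 2. Replicate numbers did not pair the libraries: same-numbered libraries had correlated deviations of -0.20 to 0.11, and 4 of 18 were closest to their own number. With the replicate block 20, 1 and 21 member peaks and, in the belinostat contrast, 1 gene (MDM2, adjusted p = 0.0455) were called. In that fit 34536, 6230 and 46357 of all peaks closed and 32344, 1902 and 54150 opened in the cytokine, belinostat and residual contrasts. Of all genes 1018 were lower and 57 higher in its belinostat contrast. Over all peaks the median cytokine change was 0.13 with TMM factors, 0.34 with library totals, -0.30 with TMM factors from weaker peaks and 0.01 with loess offsets, and the member median -0.30, -0.09, -0.74 and -0.01.

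With loess offsets some member peaks outside the naming rules changed sign too. In the residual contrast the CDKN1C peak 6.8 kb before the start went from -0.05 to 0.36. The LMNB1 peak 1.3 kb after the start went from -0.50 to 0.040. Where signs turned at the start peaks, the other rule-named peaks or the gene sums, the value after the turn was at most 0.13. This held also where the value with TMM factors had been called (as at the LMNB1 start in the residual contrast, -0.55). With loess offsets these starts, peaks and sums were, in the cytokine contrast, the CDKN1A start (0.13), the CDKN1A peaks upstream of it (0.052) and 1.5 kb after it (0.029), the GDF15 start (0.035), the GDF15 peak called in the belinostat contrast (0.041) and the gene sums of CDKN1A (0.011) and GDF15 (0.021). In the belinostat contrast they were the ARF (0.099), CDKN2B (0.11) and LMNB1 (0.031) starts and the gene sums of CDKN1B (0.076) and CDKN2B (0.011). In the residual contrast they were the CDKN1A (0.11), ARF (0.095), CDKN2B (0.042) and LMNB1 (0.018) starts and the CDKN1B peak 3.2 kb before the start (0.11). With library totals the last was 0.047, the GDF15 peak 4.1 kb before the start 0.098 (residual), and in the belinostat contrast the ARF start 0.018, the CDKN2B start 0.0092 and the gene sums of CDKN1B 0.048 and CDKN2B 0.0083. DESeq2 gave 0.057 and 0.018 for these 2 sums. With 1 library left out, the belinostat change ran from -0.10 to 0.020 for the CDKN1B sum (above 0 without belinostat replicate 4 or 5 or DMSO replicate 3), from -0.17 to 0.015 for the CDKN2B start and from -0.17 to 0.013 for its sum (above 0 without belinostat replicate 4). None of these turned values passed the test, and the cause was not tested. Over all start peaks, the medians with loess offsets were 0.02, 0.05 and 0.07 in the cytokine, belinostat and residual contrasts. Peaks of few counts limit what can be shown: member peaks of mean log2 CPM under 3 had standard errors of 0.14 to 0.59.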
